A study of Sus scrofa with 12 samples.

Results

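The comparison described here set 3 pigs with both traits high, stress response high and aggressiveness high, against 3 pigs with both traits low. The 6 animals were taken from the 12 of the series by their labels for stress response and group, and no measured value entered the choice. All were adult German Landrace pigs. Total RNA of the liver, treated with DNase, was measured for each animal on an Affymetrix porcine array of its own, with no pooling recorded in the labels. Both groups held 1 female and 2 males. The other 6 animals carried mixed labels, 3 with low stress response and high aggressiveness and 3 with high stress response and low aggressiveness, again with 1 female and 2 males each. The groups are named here by stress response first and aggressiveness second, so that high-high 3 is the animal of number 3 with both traits high and high-low the group with high stress response and low aggressiveness. These numbers only name animals within a group. The labels do not say how either trait was scored, and no treatment is recorded, so the groups differ in traits that the animals had and not in an intervention. In this pair of groups the traits always go together, so that a difference between them cannot be assigned to stress response or to aggressiveness.

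The liver responds to the hormones of the stress axes. Cortisol acts through the glucocorticoid receptor NR3C1 on genes of glucose and amino acid metabolism, and catecholamines act through adrenergic receptors on glycogen and fat. Hepatocytes secrete most plasma proteins, so the chaperones of their endoplasmic reticulum carry a heavy load, and the unfolded protein response adjusts these chaperones to it. Cytokines of the interleukin 6 family act through STAT3 and turn on the acute phase proteins.

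The deposited values were probe set signals on a linear intensity scale, which ran from 0.149 to 66150 over the 12 arrays, and the small number of arrays limits the precision. Each array correlated with the others at a median of 0.954 to 0.963 (Pearson, log2 of signal plus 16), and the lowest value belonged to high-high 3, the female of the high-high group. Where leaving out this or another of the 6 animals moved a gene's log2 fold change (in the probe set used for it) of at least 0.3 in size between high-high and low-low by over 1.5 times, the value or the range without it is given beside it. Without high-high 3 the group holds males only. The log2 ratio of the 3' to the 5' control probe set of EF1A, a sign of RNA integrity and of labelling, was 0.922 ± 0.0458 (SD, n = 3) in the high-high and 0.719 ± 0.023 (SD, n = 3) in the low-low group, and the groups did not overlap. The exact two-sided permutation test gave p = 0.1, the smallest that 3 against 3 can give, and 0.4 after adjustment over 4 ratios. The ratios of GAPDH (exact permutation p = 0.6), actin (exact permutation p = 0.8) and the mean of the controls (exact permutation p = 0.7) overlapped between the groups. The EF1A ratio therefore moves with the groups, and beyond its use as a covariate its part in the results was not tested.

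Of 15999 probe sets tested, 0 differed between the high-high and low-low groups at a Benjamini-Hochberg adjusted p under 0.05 in limma (0% called). At an unadjusted p under 0.05, 928 probe sets passed (5.8%), against 800 that chance gives on average. At an unadjusted p under 0.01, 177 probe sets passed (1.11%), 123 higher in the high-high group (0.769%) and 54 lower (0.338%), against 160 given by chance. This second threshold is used below only to describe. Of those 177 probe sets 69.5% were higher, a share that was 56.7% after quantile normalization and 55.9% after median centring. The smallest adjusted p, 0.0736, belonged to a probe set of ZNF281, singled out here after its values were seen, with a mean signal of 23.8 in the high-high and 118.6 in the low-low group. Its log2 fold change was -1.76 ± 0.20 (SE, limma), while the 5 other probe sets of ZNF281 lay between -0.21 and 0.08. On simulated data of this layout, limma recovered 54 of 66 probe sets shifted by 2 on the log2 scale (81.8%), 19 of 67 shifted by 1 (28.4%) and 1 of 67 shifted by 0.5.

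**Figure D1:**
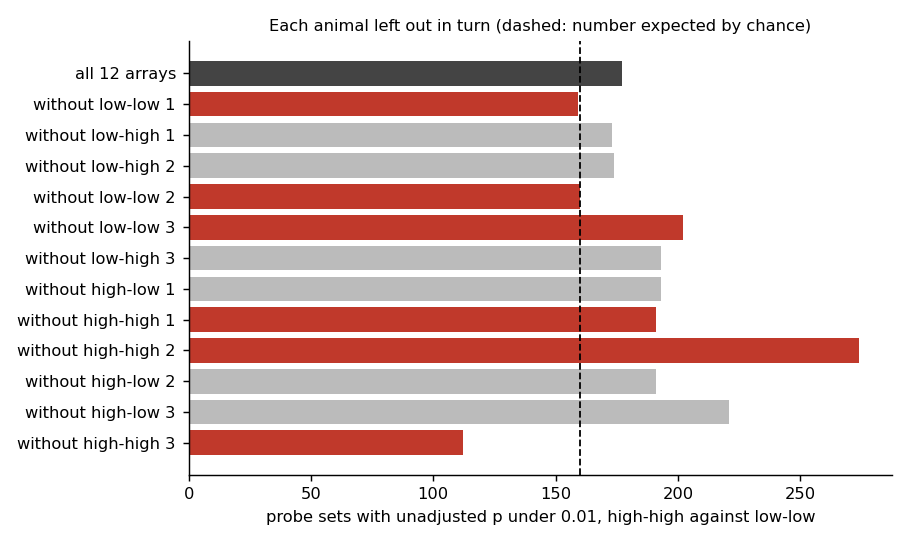
Number of probe sets with an unadjusted p under 0.01 for high-high against low-low, with all 12 arrays and with each animal left out in turn; red bars mark the 6 animals of the comparison and the dashed line the 160 expected by chance. The count is 177 with all arrays, 112 without high-high 3 and 274 without high-high 2.

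The count rested on single animals. Without high-high 3 it was 112, with 58 higher and 54 lower, below the 160 that chance gives. Without high-high 2 it was 274, with 163 higher and 111 lower, and without high-high 1 it was 191, with 108 higher and 83 lower. With the EF1A ratio as a covariate, an alternative added later, 57 probe sets were higher and 80 lower.

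For genes, 1 probe set was kept for each of 5810 symbols. At an unadjusted p under 0.01, 61 genes passed (1.05%), 39 higher (0.671%) and 22 lower (0.379%). In 683 genes the 3 high-high signals lay all above or all below the 3 low-low signals (11.8%; over all probe sets 1790, or 11.2%). The high-high side was the upper in 405 of them (6.97%) and the lower in 278 (4.78%); over probe sets the counts were 1106 (6.91%) and 684 (4.28%). The median log2 fold change of all genes was 0.02, with 3132 above 0 and 2678 below, and the gene lists are read against these values.

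Genes of the unfolded protein response, which covers folding enzymes of the endoplasmic reticulum and the factors that induce them, lay above 0 as a list. Of 18 measured members, 17 had a log2 fold change above 0, and the median was 0.46, from -0.0046 to 0.99. In 13 of the 18 (72.2%) all 3 high-high animals exceeded all 3 low-low animals, beside 6.97% of all genes. None passed the adjusted threshold in limma, and 3 passed at an unadjusted p under 0.01, HYOU1, CRELD2 and MANF, beside 0.671% of all genes. The list and its members were chosen with earlier results of these data known, so these counts only describe it.

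**Figure D2:**
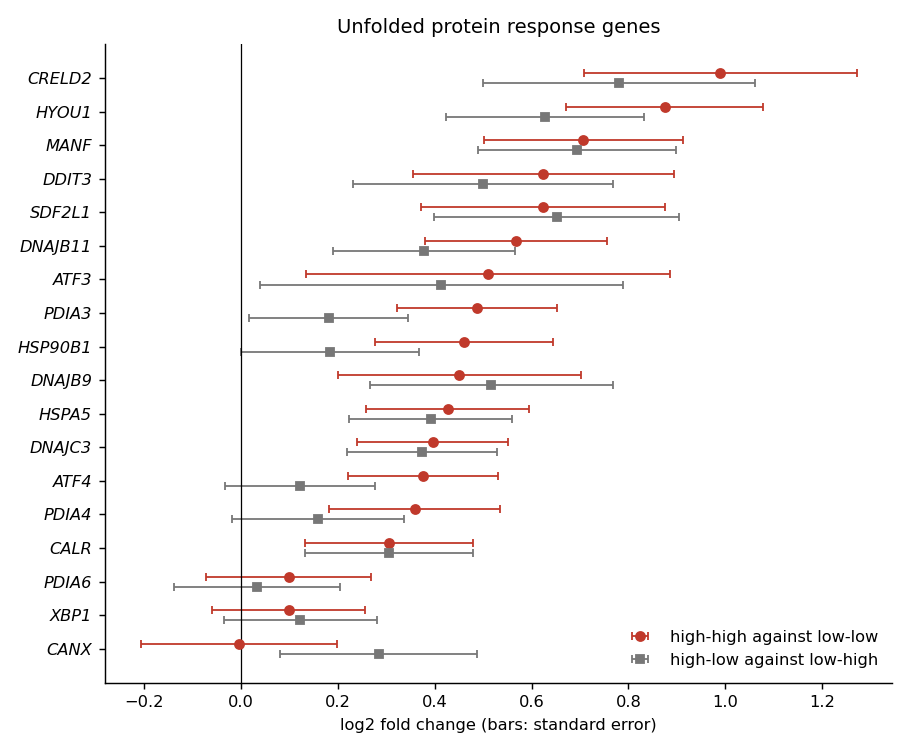
Log2 fold change of the 18 measured unfolded protein response genes, as points with standard errors, for high-high against low-low (red circles) and for high-low against low-high (grey squares), which share no animal. In red, 17 of 18 lie above 0, with CRELD2 the highest at 0.99 and CANX at -0.0046.

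HYOU1, a large chaperone related to HSP70, had signals of 2136, 1595 and 1434 in the low-low animals and of 2780, 2563 and 4284 in the high-high animals. The groups did not overlap, and high-high 3 lay far above the other two of its group. The log2 fold change was 0.87 ± 0.20 (SE; limma, adjusted p = 0.763), and 0.75 without high-high 3. CRELD2, a secreted protein of the same response, had signals of 1293, 1124 and 1037 in low-low and 1830, 1860 and 3535 in high-high animals. The high-high males were close to each other and high-high 3 was again the highest, with a log2 fold change of 0.99 ± 0.28 (SE) that was 0.74 without that animal. MANF, a small secreted protein that the same stress induces, was at 7831, 6680 and 6879 in low-low and 9311, 10200 and 16520 in high-high animals. Here too every high-high animal exceeded every low-low animal, and the log2 fold change of 0.71 ± 0.20 (SE) was 0.53 without high-high 3.

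The main chaperones showed smaller differences with less spread. HSPA5, the HSP70 chaperone known as BiP, had signals of 23820, 20240 and 22450 in low-low and 26470, 29800 and 33360 in high-high animals, a log2 fold change of 0.43 ± 0.17 (SE). HSP90B1, an HSP90 chaperone, had signals of 6659, 6606 and 7213 in low-low and 9613, 7738 and 11150 in high-high animals. Neither gene overlapped between the groups, and in both high-high 3 was the highest animal. The DNAJ cofactors of HSPA5 lay the same way, with log2 fold changes of 0.57 for DNAJB11, 0.45 for DNAJB9 and 0.40 for DNAJC3, and so did the disulfide isomerases PDIA3 (0.49) and PDIA4 (0.36, or 0.22 without high-high 3). PDIA6, another isomerase (0.10), and CANX, the lectin chaperone calnexin (-0.0046), overlapped between the groups.

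Among the regulators, DDIT3, the transcription factor CHOP, had signals of 314.7, 379.9 and 330.1 in low-low and 441.5, 451.9 and 759.8 in high-high animals, a log2 fold change of 0.62 ± 0.27 (SE) that was 0.30 without high-high 3. ATF4, which acts upstream of DDIT3, had 0.38 and ATF3 had 0.51, or 0.15 without high-high 3, and in each 1 low-low animal exceeded 1 high-high animal. XBP1, the factor activated by splicing of its transcript, had 0.10 ± 0.16 (SE), and the array was not read for its splice forms.

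Without high-high 3 the median fell to 0.37, and 1 member passed at an unadjusted p under 0.01 in limma, against 3 with all animals. Again 17 of 18 members were above 0. Leaving out an animal cannot lower the count of members without overlap. That count was 13 (72.2%, beside 10.2% of all genes in that setting), and its staying the same says nothing about the part of high-high 3. The list score, the average deviation of its genes from their own 12-array mean in log2 units, was -0.12, -0.26 and -0.23 in the low-low animals and 0.14, 0.08 and 0.56 in the high-high animals. In the mixed groups it ran from -0.27 to -0.18 in low-high and from -0.03 to 0.31 in high-low animals, and the median of the list for high-low against low-high was 0.38. With the EF1A ratio as a covariate the median was 0.55.

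**Figure D3:**
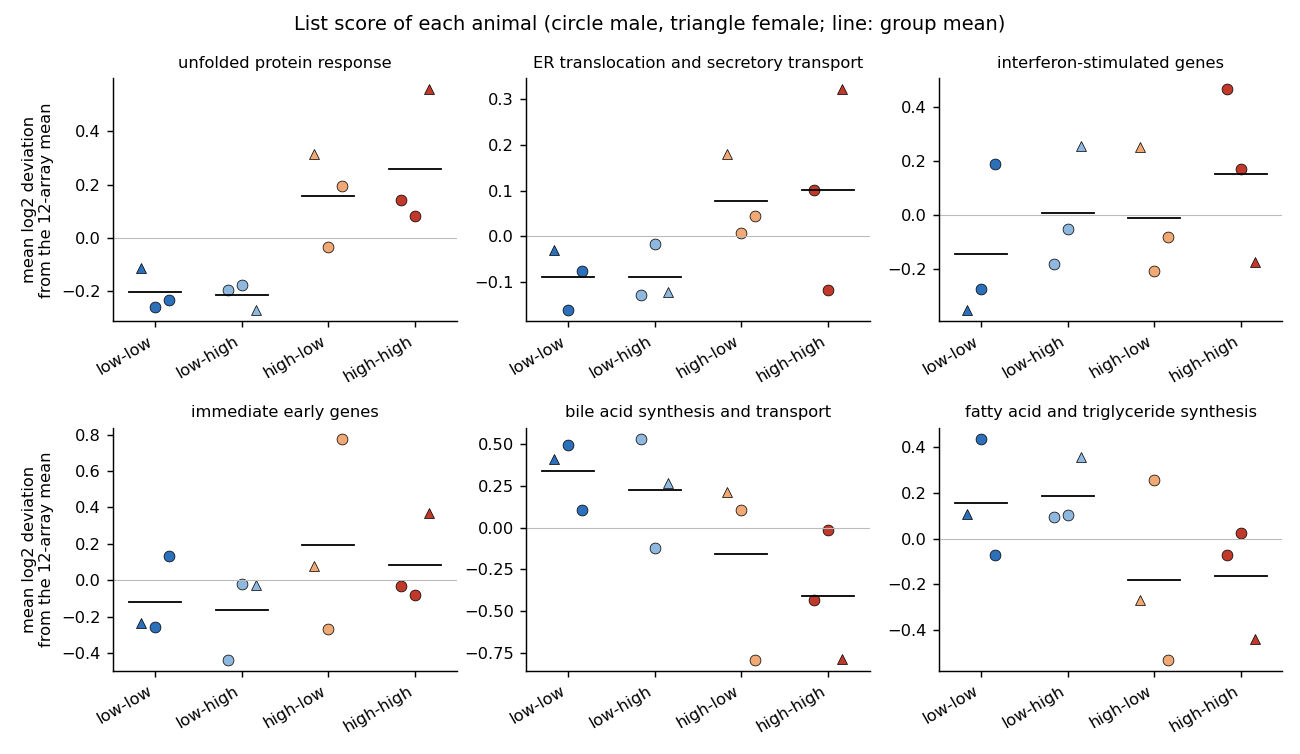
Score of 6 gene lists in each of the 12 animals, as the mean log2 deviation of the members from their mean over the 12 arrays (vertical axis); colours mark the groups, circles males, triangles females and lines the group means. For the unfolded protein response the 3 high-high animals (0.08 to 0.56) lie above the 3 low-low animals (-0.26 to -0.12), while for the immediate early genes the groups overlap.

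Genes that move nascent proteins into the endoplasmic reticulum and onward lay nearer to 0. Of 36 measured, 29 were above 0 with a median of 0.12, which was 0.06 without high-high 3 and 0.25 without high-high 2. The groups did not overlap in 3 (8.33%, beside 6.97% of all genes): SRPRB, SEC23B and SPCS2, the last of which had -0.07 with the EF1A ratio as a covariate. SRPRB, the membrane subunit of the receptor for the signal recognition particle, had signals of 1274, 1092 and 831.5 in low-low and 1625, 1555 and 3035 in high-high animals. High-high 3 lay far above the other two of its group, and the log2 fold change of 0.90 ± 0.22 (SE) was 0.64 without it. SEC23B, a subunit of the COPII coat, had 0.61 ± 0.22 (SE), and 0.36 without high-high 3. The heat shock proteins of the cytosol and mitochondria lay evenly, 9 above and 11 below 0 of 20, with a median of -0.04; HSF1, their regulator, had 0.23 ± 0.18 (SE), or -0.12 as the mean over its probe sets, and HSP90AA1 had 0.26 ± 0.18 (SE), and both overlapped. Other probe sets of HSP90AA1 had -0.53, 0.31, 0.64 and 0.10. Without 1 animal HSF1 had from 0.09 (low-low 1) to 0.39 (low-low 2) and HSP90AA1 as little as 0.13 (high-high 1) and 0.15 (low-low 2), and the median of the list changed sign.

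**Figure D4:**
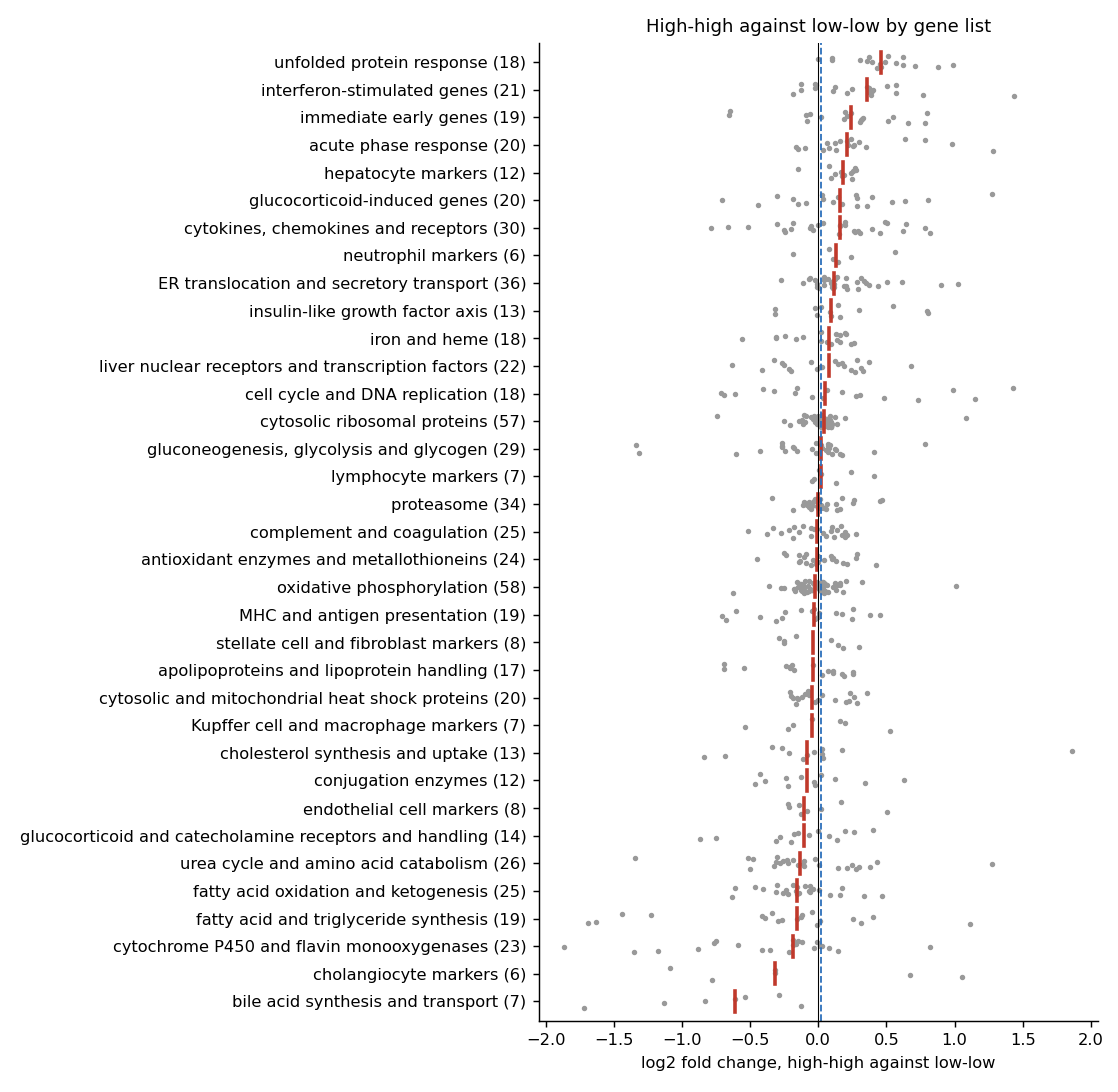
Log2 fold change of high-high against low-low (horizontal axis) for each measured gene of the 35 lists with at least 5 genes (grey points; number measured in brackets), with the median of each list in red and that of all genes as a dashed line. The unfolded protein response has the highest median, 0.46, and bile acid synthesis and transport the lowest, -0.61. The lists were chosen with earlier results of these data known.

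The gene with the smallest p on the high-high side was WAS, the actin regulator of blood cells. Its signals were 83.08, 76 and 82.44 in low-low and 185, 206.7 and 156.7 in high-high animals. The low-low animals lay within a narrow band and the mixed animals, from 94.64 to 143.3, fell between the groups. The log2 fold change was 1.04 ± 0.17 (SE; limma, adjusted p = 0.345), and 1.18 without high-high 3. CLSTN3, a calsyntenin of the cell surface, had signals of 35.98, 63.11 and 80.18 in low-low and 175, 190.8 and 94.91 in high-high animals, a log2 fold change of 1.16 ± 0.21 (SE). The lowest high-high animal, number 3, lay just above the highest low-low animal.

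MLEC, malectin, a lectin of the endoplasmic reticulum that reads new N-glycans, had signals of 523.2, 310.1 and 391.8 in low-low and 718.7, 741.8 and 795.4 in high-high animals, a log2 fold change of 0.89 ± 0.20 (SE). The high-high animals were close together and all above the low-low animals. SLC39A14, a zinc and iron importer of hepatocytes, had signals of 519.2, 605.1 and 450.1 in low-low and 988.3, 1001 and 2187 in high-high animals. Its log2 fold change was 1.29 ± 0.30 (SE), and 0.90 without high-high 3; a second probe set had 0.87. STK19 had 1.49 ± 0.38 (SE), but its second probe set had 0.39, and CLASRP had 0.59 ± 0.15 (SE) while its 2 other probe sets had -0.62 and 0.01. The remaining genes of the 10 with the smallest p were HYOU1 and SRPRB, described above, with SPRP (1.26 ± 0.28, SE) and TFPT (0.95 ± 0.24, SE). In TFPT the low-low mean, 32.8, lay under the 40.58 that a probe set needed as a mean over all arrays to be tested.

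Among the genes, with 1 probe set each, the smallest p on the lower side was that of PRKAG3. It is a regulatory subunit of the AMP-activated kinase known from muscle glycogen in pigs. Its signals were 85.95, 117.1 and 105 in low-low and 35.72, 33.71 and 23.55 in high-high animals. The high-high animals lay below all 9 others, as the mixed groups had signals from 82.5 to 158.2. The log2 fold change was -1.34 ± 0.18 (SE; limma, adjusted p = 0.156), and the same without high-high 3; the high-high signals are among the low values of the array. PRKAA2, a catalytic subunit of the same kinase, had signals of 619.1, 327.7 and 294.7 in low-low and 648.7, 582.6 and 856 in high-high animals. The groups overlapped through low-low 1, with a log2 fold change of 0.79 ± 0.28 (SE).

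FBP2, the muscle-type fructose bisphosphatase, had signals of 410.1, 329.2 and 342.4 in low-low and 103.1, 157.6 and 150.4 in high-high animals. The lowest low-low animal had more than the highest high-high animal by a wide margin, and the log2 fold change was -1.31 ± 0.26 (SE; limma, adjusted p = 0.525). ABHD18 had signals of 131.5, 169.9 and 177.3 in low-low and 58.64, 84.24 and 66.45 in high-high animals, a log2 fold change of -1.03 ± 0.20 (SE). MTURN was at 1202, 1489 and 1366 in low-low and 819.8, 853.3 and 863.4 in high-high animals, with a log2 fold change of -0.66 ± 0.16 (SE). MAL2, a protein of transcytosis in polarised cells, had 1905, 1672 and 1673 in low-low and 1086, 1196 and 890.4 in high-high animals. In MTURN and MAL2 the groups were clear of each other, and the log2 fold change of MAL2 was -0.73 ± 0.17 (SE).

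CRHR1, the receptor for corticotropin-releasing hormone, had signals of 135.6, 118.1 and 80.2 in low-low and 11.35, 5.301 and 66.12 in high-high animals. The high-high males were near the bottom of the scale and high-high 3 was not, so that the log2 fold change of -1.78 ± 0.44 (SE) was -2.23 without that animal. In the mixed groups the signal ranged from 35.83 to 134.2, and the lowest of the low-high animals (35.83) and of the high-low animals (40.99) lay below every low-low animal. DDO, which oxidises D-aspartate, had signals of 563.3, 1217 and 1061 in low-low and 243, 372.7 and 449.1 in high-high animals, a log2 fold change of -1.35 ± 0.34 (SE). DLG3 had -0.85 ± 0.20 (SE), SART1 -0.87 ± 0.23 (SE) and PQLC3 -0.77 ± 0.18 (SE), and a second probe set of PQLC3 had -0.23. In SART1 the high-high mean, 24.48, lay under the 40.58 that a probe set needed as a mean over all arrays.

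**Figure D5:**
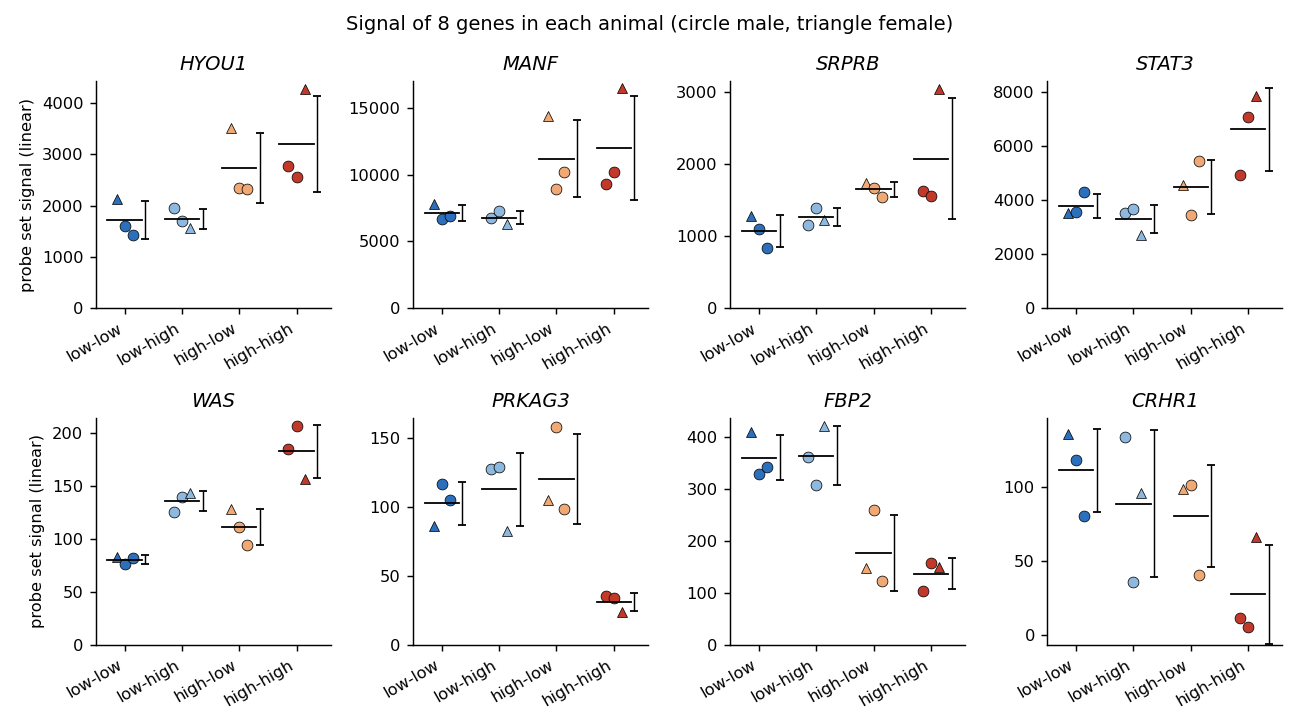
Probe set signal on a linear scale (vertical axis) of 8 genes in each of the 12 animals, by group; circles are males, triangles females, lines the group means and bars the SD (n = 3). PRKAG3 is at 23.55 to 35.72 in the high-high animals and at 82.5 or more in the other 9, and WAS is at 156.7 to 206.7 in the high-high and 76 to 83.08 in the low-low animals.

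Lipid genes varied widely between animals. For bile acid synthesis and transport, all 7 members measured had log2 fold changes below 0, with a median of -0.61, and the groups did not overlap in 2 (28.6%, beside 4.78% of all genes). ABCC2, which exports conjugates into bile, had signals of 940.6, 1008 and 687.3 in low-low and 579.2, 579.2 and 533.5 in high-high animals, a log2 fold change of -0.61 ± 0.23 (SE). CYP7A1, the rate-limiting enzyme of bile acid synthesis, had 237, 378.7 and 55.98 in low-low and 29.19, 47.36 and 54.33 in high-high animals. The groups of CYP7A1 were parted by a narrow gap, and its log2 fold change of -1.72 ± 1.06 (SE) had an unadjusted p of 0.136 in limma and was -0.99 without low-low 2. ABCB11, the bile salt export pump, had -0.83 ± 0.29 (SE), or -0.54 without high-high 3, and overlapped through high-high 2, and the uptake carrier SLC10A1 had -0.54 ± 0.42 (SE), with 0.03 without high-high 3 and -1.02 without high-high 2. The median of the list was -1.02 without high-high 2, -0.54 without high-high 3 and -0.46 without low-low 1; without high-high 3 only 4 of the 7 were below 0.

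In cholesterol synthesis 5 of 13 genes were above 0 and 8 below, with a median of -0.08 that ran from -0.24 without high-high 2 to -0.01 without high-high 3. Without overlap were 1 gene on the higher and 1 on the lower side (15.4%, beside 11.8% of all genes). FDFT1, squalene synthase, had signals of 4698, 4886 and 4800 in low-low and 2480, 2899 and 2657 in high-high animals. Both groups were tight and did not overlap, with a log2 fold change of -0.84 ± 0.24 (SE; limma, unadjusted p = 0.00506, adjusted p = 0.778). HSD17B7, a later enzyme of the pathway, lay the other way, with 597.4, 1126 and 1687 in low-low and 2125, 3458 and 7681 in high-high animals. Its log2 fold change of 1.86 ± 0.54 (SE) was 1.01 without low-low 1. SQLE, the enzyme after FDFT1, had -0.68 ± 0.27 (SE) and overlapped, and HMGCS1 and INSIG1 had -0.11 and 0.03.

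Synthesis of fatty acids and triglycerides had 14 of 19 genes below 0, with a median of -0.16, but 10 of 19 without high-high 3. The median ran from -0.29 without high-high 1 to -0.10 without low-low 1. The desaturases FADS1 and FADS2 had -1.69 ± 0.74 and -1.63 ± 0.74 (SE), and both overlapped between the groups. DGAT2, which makes triglycerides, had signals of 6103, 7524 and 4770 in low-low and 4147, 4106 and 982.7 in high-high animals. High-high 3 carried most of that difference, as the log2 fold change was -1.23 ± 0.52 (SE) with and -0.58 without it. FASN, fatty acid synthase, lay above 0, with 189.7, 405.4 and 415.9 in low-low and 406.3, 1408 and 608.5 in high-high animals, and 1.11 ± 0.41 (SE) was 0.63 without high-high 2. Its 3 other probe sets had 1.24, 0.39 and -0.53. For 25 genes of fatty acid oxidation the median was -0.15, with 19 below 0, but it was -0.0049 without low-low 1 -0.06 without high-high 3 and -0.33 without low-low 3. LIPC, hepatic lipase (-0.55 ± 0.21, SE), and PON3 (-0.69 ± 0.32, SE) did not overlap, and PON3 had -0.38 without high-high 3 and -0.41 without low-low 1. LIPC and PON3 were the 2 of 17 lipoprotein genes without overlap (11.8%, beside 4.78% of all genes on the lower side and 11.8% in either direction). The median of the 17 was -0.04, or 0.11 without low-low 1.

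Among 20 acute phase genes 17 were above 0, with a median of 0.21, and 2 did not overlap (10%, beside 6.97% of all genes). STAT3, the transcription factor of the interleukin 6 signal, had signals of 3503, 3564 and 4287 in low-low and 4913, 7064 and 7850 in high-high animals. All high-high animals exceeded all low-low animals, with a log2 fold change of 0.78 ± 0.24 (SE; limma, unadjusted p = 0.00861, adjusted p = 0.797), and 0.59 without high-high 3. CRP, C-reactive protein, had 11010, 4623 and 17290 in low-low and 16660, 23400 and 32540 in high-high animals; the groups touched through low-low 3, with a log2 fold change of 1.28 ± 0.39 (SE) that was 0.79 without low-low 2. LBP, which binds lipopolysaccharide, had 0.98 ± 0.48 (SE), or 0.41 without high-high 3 and 0.50 without low-low 1, and overlapped, while HP (0.13), SAA2 (0.04) and ORM1 (-0.15) were near 0. With the EF1A ratio as a covariate the median of the list was -0.05.

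The median of 21 interferon-stimulated genes was 0.36, with 15 above 0, and 3 did not overlap (14.3%, beside 6.97% of all genes). MX1, an antiviral GTPase, had signals of 445.6, 726.9 and 1612 in low-low and 2995, 1741 and 2056 in high-high animals, a log2 fold change of 1.43 ± 0.56 (SE), and 0.76 without low-low 1. ISG15, a ubiquitin-like modifier, had 1529, 1532 and 1626 in low-low and 3300, 1988 and 1911 in high-high animals. High-high 1 was the highest animal in both genes, and ISG15 had 0.57, or 0.30 without that animal and -0.09 with the EF1A ratio as a covariate. The median was 0.13 without high-high 1, 0.22 without high-high 2, 0.56 without high-high 3, 0.15 without low-low 1, 0.23 without low-low 2 and -0.06 with the EF1A ratio as a covariate, so its size followed single animals and its sign that covariate. For high-low against low-high the median of the list was -0.04.

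Of 30 cytokines, chemokines and receptors 18 were above 0, with a median of 0.16, and 8 did not overlap (26.7%, beside 11.8% of all genes). The median was 0.03 without low-low 2, 0.09 without high-high 2, 0.27 without low-low 1 and -0.04 with the EF1A ratio as a covariate. IL1R1, the interleukin 1 receptor, had signals of 1618, 1736 and 1851 in low-low and 2449, 2787 and 4260 in high-high animals, a log2 fold change of 0.82 ± 0.24 (SE) that was 0.58 without high-high 3. The low-low animals were tightly grouped below all high-high animals; a second probe set, at much lower signal, had 0.12. CXCL12, a chemokine of the stroma, had 4102, 3120 and 4853 in low-low and 2883, 2662 and 2018 in high-high animals, a log2 fold change of -0.66 ± 0.23 (SE), with -0.27 in a second probe set. IFNAR1 had 0.64 ± 0.27 (SE) and CCL21 -0.79 ± 0.36 (SE), and neither overlapped; IFNAR1 had 0.39 without high-high 3 and CCL21 -0.43 without high-high 1. Immediate early genes had a median of 0.24 with 14 of 19 above 0, and the median was 0.0082 without high-high 3 and 0.42 without low-low 3. ZFP36, which degrades cytokine messages, had 500, 526.6 and 565.5 in low-low and 696.2, 852.7 and 1375 in high-high animals, without overlap, and FOS had 0.79 ± 0.47 (SE), or 0.45 without low-low 2, and overlapped. Of the 19 immediate early genes 2 lay higher without overlap (10.5%, beside 6.97% of all genes on the higher side and 11.8% in either direction).

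Genes of glucocorticoid action differed in sign among themselves. Of 20 glucocorticoid-induced genes 14 were above 0, with a median of 0.16, or 0.07 without high-high 3, and 2 did not overlap (10%, beside 6.97% of all genes), PCK1 and MT1A. PCK1, which commits carbon to glucose synthesis, had 24460, 23020 and 22260 in low-low and 25900, 27980 and 24970 in high-high animals, a log2 fold change of 0.18 ± 0.15 (SE). FKBP5, a cochaperone of the receptor, had 122.2, 220.7 and 147.7 in low-low and 161.9, 116 and 465.4 in high-high animals. Only high-high 3 stood out, and the log2 fold change was 0.36 with and -0.40 without it, and up to 0.78 without high-high 2; a second probe set had 0.85. TAT (-0.15 ± 0.37, SE), PER1 (0.28 ± 0.27, SE) and TSC22D3 (-0.45 ± 0.27, SE) overlapped. With 1 animal left out TAT ran from -0.55 without low-low 1 to 0.18 without high-high 1, PER1 from 0.12 without high-high 3 to 0.54 without high-high 1, and TSC22D3 from -0.70 without high-high 1 to -0.22 without high-high 3.

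Of 14 genes for receptors and handling of glucocorticoids and catecholamines 5 were above 0 and 9 below, with a median of -0.11, which was 0.0018 without low-low 2. NR3C1, the glucocorticoid receptor, had 140.8, 188.6 and 153.4 in low-low and 96.89, 107.3 and 241.8 in high-high animals, and its probe sets differed in sign (-0.20 and 0.58); the first had from -0.51 without high-high 3 to -0.0073 without low-low 2. SERPINA6, the plasma carrier of cortisol, had 5320, 4955 and 3876 in low-low and 2412, 5080 and 1359 in high-high animals. High-high 2 lay among the low-low animals, and the log2 fold change of -0.87 ± 0.43 (SE) was -0.24 without high-high 3 and -1.40 without high-high 2. HSD11B1, which regenerates cortisol, had -0.31 ± 0.19 (SE), or -0.10 without high-high 3 and -0.16 without low-low 1, and overlapped. AKR1C1, a ketosteroid reductase, was the 1 member that did not overlap (7.14%, beside 4.78% of all genes), with 251.8, 255.6 and 279.3 in low-low and 101, 227.8 and 142.5 in high-high animals, a log2 fold change of -0.75 that was -0.50 without high-high 1.

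Of 23 genes of cytochrome P450 and flavin monooxygenases, with their partners, 18 were below 0, with a median of -0.19, or -0.09 without high-high 3 and -0.38 without high-high 2. EPHX1, the microsomal epoxide hydrolase, had 15280, 14620 and 11850 in low-low and 9518, 10310 and 5626 in high-high animals, a log2 fold change of -0.75 ± 0.28 (SE), and -0.42 without high-high 3. CYP1A1 had -1.35 ± 0.64 (SE) and did not overlap, CYP2C49 -0.88 ± 0.40 (SE) and overlapped, and CYP2E1 had 0.08. Of the 23 genes 2 lay lower without overlap (8.7%, beside 4.78% of all genes on the lower side and 11.8% in either direction). Without high-high 3 CYP1A1 had -0.55 and CYP2C49 -0.46, and CYP2C49 had -0.55 without low-low 1 and -1.35 without high-high 1. The 12 conjugation enzymes had a median of -0.08, or 0.04 without high-high 3. For gluconeogenesis, glycolysis and glycogen 15 of 29 were above 0, with a median of 0.02 (-0.12 without low-low 3), and PRKAG3 and FBP2 were its 2 members with an unadjusted p under 0.01 in limma, beside 1.05% of all genes in either direction and 0.379% on the lower side. For the urea cycle and amino acid catabolism the median was -0.13 with 17 of 26 below 0, and -8.41e-05 without high-high 3. OTC, which makes citrulline, had -0.50 ± 0.22 (SE) and CTH, which makes cysteine, 0.43 ± 0.20 (SE). Without high-high 3 OTC had -0.26 and CTH 0.29, and CTH had 0.28 without low-low 1.

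Lists of large complexes had medians close to that of all genes. The median was 0.04 for 57 cytosolic ribosomal proteins, -0.03 for 58 genes of oxidative phosphorylation and -0.0031 for 34 proteasome genes, and each changed sign with single animals left out. RPL37 was the 1 gene of these lists with an unadjusted p under 0.01 in limma, beside 1.05% of all genes, with 917.3, 940.3 and 619.6 in low-low and 439.5, 526.1 and 475.9 in high-high animals, a log2 fold change of -0.74 ± 0.22 (SE; limma, adjusted p = 0.778). Of the 34 proteasome genes 3 lay higher and 1 lower without overlap (11.8%, beside 11.8% of all genes). PSMD10 (0.45 ± 0.16, SE) and PSMD12 (0.46 ± 0.19, SE), of the proteasome's regulatory particle, were among those higher. The median of 18 cell cycle genes was 0.05, and RAD54L, a factor of recombination repair, had 17.67, 16.37 and 67.94 in low-low and 101.5, 83.9 and 135 in high-high animals, at the low end of the scale.

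Hepatocyte markers were near the top of the signal scale, as the tissue label implies, and their summed signal ran from 411900 to 424800 in high-high and from 336600 to 415400 in low-low animals. Of 12 such markers 11 were above 0, with a median of 0.18, none of them without overlap, and the median was -0.09 with the EF1A ratio as a covariate. Summed signals of the other cell types overlapped between the groups in every list. Kupffer cell and macrophage markers ran from 21070 to 28130 in high-high and from 19940 to 25260 in low-low animals, endothelial markers from 5036 to 5493 and from 5332 to 6399, and stellate cell and fibroblast markers from 9577 to 10710 and from 7999 to 11490. Lymphocyte markers ran from 671.3 to 933.3 and from 583.7 to 995.8, and neutrophil markers from 1109 to 1290 and from 884.8 to 1600. Cholangiocyte markers ran from 12530 to 31630 in high-high and from 9941 to 15230 in low-low animals, through the keratins KRT18 and KRT8, which hepatocytes also express. KRT18 had 3221, 3738 and 4210 in low-low and 4693, 6503 and 14870 in high-high animals, a log2 fold change of 1.05 that was 0.63 without high-high 3. KRT8 had 0.67, or 0.39 without that animal and 0.37 without low-low 1. Counted by gene, the cholangiocyte list lay the other way, as only 2 of its 6 members were above 0. Its median was -0.32, or -0.10 without low-low 1, and 0.18 with the lowest 50% of probe sets left out. SPP1 had -1.09, or -0.19 without low-low 3 and -1.81 without low-low 2. EPCAM had -0.32 ± 0.29 (SE; 0.26 with the EF1A covariate, -0.04 without low-low 1 and -0.50 without low-low 3), and SOX9 and CFTR reached at most 9.505 and 12.01 on any of the 6 arrays. Among the blood cell genes NCF4, a subunit of the phagocyte oxidase, had 81.18, 81.79 and 76.3 in low-low and 127.1, 129.1 and 120.8 in high-high animals, with a log2 fold change of 0.57 ± 0.16 (SE; limma, unadjusted p = 0.00532). In bulk liver, fewer cells of a type and less RNA per cell cannot be told apart, and the part of cell composition in WAS, NCF4 and the cytokine genes was not tested.

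The mixed animals were used to set a comparison in which the traits go opposite ways beside that of high-high and low-low. Subtracting the former from the latter sets the groups with high aggressiveness against those with low aggressiveness. An effect of aggressiveness alone would therefore give such a difference. The subtraction cannot show whether a difference is particular to animals with both traits high or low. The difference between high-low and low-high, which shares no animal with the comparison above, had 123 probe sets at an unadjusted p under 0.01 (0.769%) and 0 at an adjusted p under 0.05 in limma. Over 15999 probe sets its log2 fold changes correlated with those of high-high against low-low at Pearson r = 0.178 and Spearman rho = 0.192, given as a description, since probe sets of the same arrays are not independent. When the difference of the mixed groups was subtracted from that of high-high and low-low, 84 probe sets had an unadjusted p under 0.01 (0.525%) and 497 under 0.05, both fewer than the 160 and 800 that chance gives, and 0 passed adjustment in limma (smallest adjusted p = 0.273). FBP2 had -1.31 ± 0.26 and -1.03 ± 0.26 (SE) in the respective comparisons, and FDFT1 had -0.84 and -0.81, each with its error of 0.24. WAS had 1.04 against -0.26, and the difference between these was 1.30 ± 0.24 (SE; limma, adjusted p = 0.776). PJA1, a ubiquitin ligase, had -0.99 against 0.47, but 0.04 in a second probe set, and SSTR1, a somatostatin receptor at low signal, had 0.99 against -1.34.

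The interaction asked whether the high-high and low-low groups together lay off the level of the mixed groups. It had 104 probe sets at an unadjusted p under 0.01 (0.65%) and 619 under 0.05, and 0 passed adjustment in limma (smallest adjusted p = 0.567). Among the genes PRKAG3 had the smallest p on the lower side, with an interaction of -1.63 ± 0.26 (SE; limma, unadjusted p = 7.09e-05, adjusted p = 0.567), since only the high-high group lay low. OGDHL, a paralogue of a subunit of oxoglutarate dehydrogenase, had signals of 1015, 1367 and 1529 in low-low and 1130, 1174 and 850.6 in high-high animals. In low-high animals it had 215.5, 248.9 and 412, and in high-low animals 219.1, 198 and 920.7. The groups with matching labels overlapped, and apart from high-low 3 the mixed animals lay below both, with an interaction of 3.68 ± 0.68 (SE; limma, adjusted p = 0.766). RGS16, a regulator of G protein signalling, was at 66.98, 77.31 and 78.02 in low-low and 119.2, 83.4 and 56.96 in high-high animals, and at 7.554 to 16.65 in high-low animals. GRK5, a kinase of G protein-coupled receptors, was at 74.31 to 114.8 in low-low and 69.28 to 104.9 in high-high animals, below every mixed animal (116.3 to 181.2), with an interaction of -1.38 ± 0.29 (SE; limma, adjusted p = 0.814). IGFBP6 (-2.03 ± 0.45, SE) and STN1 (0.83 ± 0.21, SE) completed these genes.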

How the data were processed

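Labels for stress response and group placed each of the 12 arrays in 1 of 4 groups of 3. The authors deposited probe set signals as linear intensity, made with GCOS 1.1.1 per the submitters' processing notes; the summary of probes and the scaling are not given in the sources used here. A 2% trimmed mean of 500.2 on each array shows that arrays had been scaled before deposit. Of 24123 probe sets, 124 controls and the 33.3% of the rest with the lowest mean were left out. Symbols came from the array's table (10099 probe sets with 1 symbol, 198 with several, 13826 with none); several or none meant no name, and 9989 of the first matched a RefSeq gene with the same symbol. The kept probe set with the highest mean stood for a gene.

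The model, in limma 3.58.1 (R 4.3.3), was fitted to log2(signal + 16) of 15999 probe sets with 4 group means and sex, 7 residual degrees of freedom, and Benjamini-Hochberg adjustment over all of them. Fold changes are on this scale, which understates those of low signals. In the main fit, where sex is balanced over the groups, the mixed animals enter only the spread. With a high-high or low-low animal left out, they also enter the fold change through the term for sex. With an RNA quality covariate they enter it through the slope of that covariate. SE is that of limma, SD the spread of animals, which the labels give as separate animals. Genes named were, in high-high against low-low, the 10 higher and 10 lower with the smallest p (as none passed); of each list the 4 with the smallest p; 13 fixed genes; and 3 in each direction of the interaction and of the difference from the mixed groups. Other members named illustrate their list and were chosen after their values were seen. The lists, members and tests were chosen with earlier results of these data known. The analysis was tested on simulated data. Alternatives changed the model, samples, filter, scaling, constant, variance, probe set rule and RNA quality covariate, and left out each animal in turn. Plots used matplotlib 3.10.9 (Python 3.11.15).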

Additional observations from a re-analysis of the deposited data

How the results depend on the processing

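No paired analysis was possible because the labels give no replicate numbers that groups share. High-high against low-low gave 0 probe sets at an adjusted p under 0.05 in limma under every alternative except males only, a constant of 1 and array weights, with 1 each, and 0 with any animal left out. The count at an unadjusted p under 0.01 was 177, 307 with no filter (201 higher, 106 lower), 273 with array weights (188 higher, 85 lower) and 112 to 274 with an animal left out (58 to 163 higher, 37 to 111 lower). Median centring gave 82 lower, and the EF1A ratio as a covariate, chosen after the data were seen, gave 57 higher. The difference from the mixed groups had 84 such probe sets, 208 with no filter, 43 with the lowest 50% left out and 76 to 127 with an animal left out. The interaction had 104, 243 with no filter and 95 to 146 with an animal left out, and 0 to 1 passed the adjusted threshold then. The filter changes how many probe sets are tested; the cause of the other moves was not tested. Fits without the female high-high 3 leave 2 animals in that group.

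Named genes whose log2 fold change turned sign were none of the 10 highest or lowest except CLASRP. With the EF1A covariate they were APOC3 -0.202, C1QA 0.0802, CD2 -0.937, CD3E -0.776, CD8B -0.467, CEBPA 0.227, COL1A2 -0.525, COL3A1 -0.468, DDX58 -0.102, ELANE -0.238, EPCAM 0.258, ERG -0.355, FECH 0.00903, FGB -0.0444, FTL -0.0838, HSF1 -0.0587, INSR -0.21, ISG15 -0.0946, NCF1 0.126, PSMF1 0.189, RPL26 -0.302, RPL27A -0.0293, RXRA -0.671, SLA-DMA 0.274, SPCS2 -0.07, STN1 0.0244, TF -0.138, TIMP1 0.368, VTN -0.0417 and VWF -0.159. With males only they were CD3D 0.205, CD3E -0.0927, CD8B -0.00168, FKBP5 -0.361, PECAM1 0.048, SERPIND1 0.174 and SREBF2 0.0132, with the mean over probe sets CLASRP -0.00571, HSF1 -0.121, NCOA2 -0.00686, NR3C1 0.19, NR5A2 -0.0698, PECAM1 0.0637 and VWF -0.127, and with quantile normalization VTN -0.000734. With an animal left out the ranges were CD3D -0.215 to 0.278, CD3E -0.209 to 0.36, ELANE -0.143 to 0.615, ERG -0.0152 to 0.293, FKBP5 -0.399 to 0.777, NCF1 -0.429 to 0.0691, PECAM1 -0.224 to 0.087, S100A8 -0.236 to 0.524, SERPIND1 -0.585 to 0.107, TAT -0.547 to 0.177 and VWF -0.069 to 0.909. The arrays carry no detection calls, so low signals, such as those of CRHR1 and PRKAG3 in high-high animals, cannot be set against a measured background.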
